A study of Rattus norvegicus with 18 samples.

Results

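The genes described here encode proteins of the spliceosome and other splicing factors, measured in the peripheral blood mononuclear cells (PBMC) of rats on 3 diets. They were chosen by name alone: every gene whose array name began with Sf3a, Sf3b, Snrp, Sfrs, Srsf, Hnrp, Hnrnp, Lsm and a digit, Prpf, U2af or Luc7l, whose Cy5 signal was well above background on 5 or more of the 18 arrays. All 56 genes so named passed, of 21591 genes kept in all, and 55 of them were well above background on all 18 arrays (Hnrnpll on 16). No spot of these genes was saturated. For each gene the brightest probe was used. Old array names were brought up to date, so that Hnrpa2b1 is given as Hnrnpa2b1 and Sfrs3 as Srsf3. The names Sfrs10, Sfrs12, Sfrs14, Sfrs15 and Sfrs8 belong to Tra2b, Srek1, Sugp2, Scaf4 and Sfswap, which are relatives or partners of the SR proteins. A further 10 genes kept on the array carry a current symbol of this pattern but another array name, and were not included.

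Splicing removes introns from precursor messenger RNA. The small nuclear RNAs U1, U2, U4, U5 and U6, each wrapped in Sm or LSm proteins and carrying proteins of their own, recognise the splice sites and the branch point and assemble into the spliceosome on most introns. SR proteins mostly favour the use of an exon, while heterogeneous nuclear ribonucleoproteins (hnRNPs) coat the transcript and often hold exons back. In lymphocytes, Hnrnpll and Hnrnpl are known for skipping variable exons of the transcript of the phosphatase CD45 when T cells are activated.

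The samples were 18 male Wistar rats, 6 on each of 3 purified diets. The low-fat control diet (LFD) drew 10% of its energy from fat, 20% from protein and 70% from carbohydrates and was eaten freely. The high-fat diet (HFD) supplied 60%, 20% and 20%, and the high-protein diet (HPD), mainly with casein, 10%, 45% and 45%, both in amounts matched to the energy the LFD rats took in. Feeding began at 2 months of age and lasted 4 months, and every group had been fasted for 14 h at the end. Cells came from blood by Ficoll gradient, and each array compared the Cy5-labelled RNA of 1 rat with a Cy3-labelled pool of the samples. Values are log2 ratios to that pool, so 1 unit is a doubling and levels of different genes cannot be compared. One array is titled as HFD replicate 7 while its source and description say HPD, and it was used as HPD replicate 7. In these mixed cells a change in RNA per cell and a change in the share of a cell type cannot be told apart.

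Across the arrays 53.1 to 63.4% of probes were well above background, and the arrays lay on 5 slides. In the control diet, LFD replicates 2 and 6 had the widest spread of log ratios, with a median absolute deviation of 0.570 and 0.592 against 0.269 to 0.396 on the other 16. They also ran against each other, with a correlation of -0.476 over all genes. The labels state the dyes, and each rat was set against a pool, so the direction of the ratio was kept on both. Markers of T cells (8 of 9 measured), B cells (5 of 7) and monocytes (6 of 7) were well above background on all 18 arrays, as were 8 of 9 platelet and 7 of 9 erythroid markers. The mean log2 ratio of the 7 erythroid markers on an array ran from -1.24 to 1.01 in LFD, -1.59 to 1.02 in HFD and -1.49 to -0.05 in HPD.

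No splicing gene passed the test for a difference between diets. None of the 56 passed an adjusted p of 0.05 for HFD against LFD, HPD against LFD or HPD against HFD (limma, Benjamini-Hochberg adjustment over all 21591 genes), and none passed in the test for any diet. This was also the whole array's result, with 0% of all genes called in each of the 4 tests. At an unadjusted p under 0.05, 1, 2 and 0 splicing genes passed in the 3 comparisons, against 2.12, 2.97 and 3.12% of all genes, and none passed for any diet, against 2.43% of all genes.

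The median difference of the splicing genes was 0.048 for HFD minus LFD, 0.057 for HPD minus LFD and -0.014 for HPD minus HFD, beside 0.0006, 0.023 and 0.020 for all genes. In HFD 38 of 56 were higher than in LFD (50.2% of all genes were), in HPD 37 were higher than in LFD (55.0% of all genes) and 24 higher than in HFD (54.5% of all genes). The difference lay within 0.2 on either side of 0 for 52, 52 and 47 of the 56 genes. The median standard error of a difference was 0.150 (LFD comparisons) for splicing genes and 0.204 for all genes. The median over the members of a single array ran from -0.13 to 0.15 in LFD, from -0.12 to 0.16 in HFD and from -0.13 to 0.10 in HPD, so the 3 groups overlapped. The HPD minus HFD median had no stable sign: over the alternative settings it ran from -0.043 to 0.086, and 17 genes were higher in HPD after centring each array but 42 in the authors' deposited values. The median of all genes moved the same way, from -0.009 after centring to 0.064 in the authors' values. Within slides that held both diets, the difference of the median over members was -0.04, 0.05 and -0.02 for HFD minus LFD on slides 1, 3 and 5. It was 0.15 and 0.04 for HPD minus LFD on slides 3 and 4, and -0.09 and 0.10 for HPD minus HFD on slides 2 and 3.

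**Figure D1:**
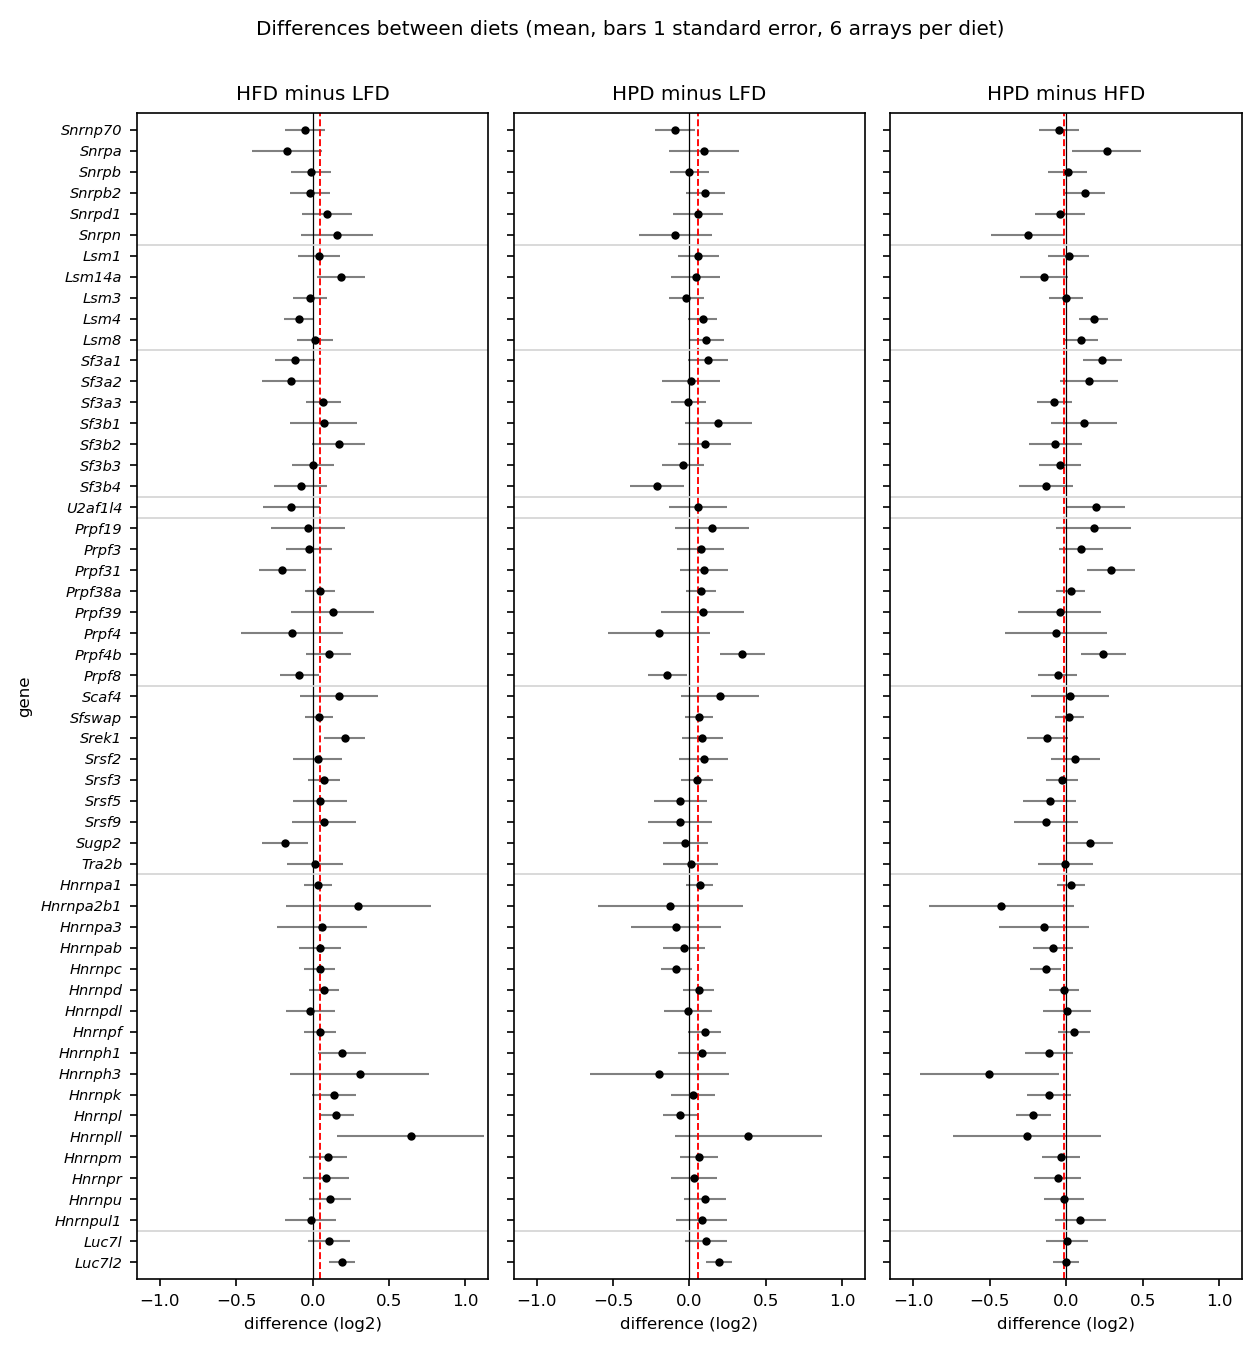
Difference between diets in log2 units for 55 of the 56 genes, in 3 panels by comparison and grouped by role, with bars of 1 standard error; the red dashed line is the median over all 56 genes. Most points lie within 0.2 of 0, and the widest bars belong to Hnrnpll, Hnrnpa2b1 and Hnrnph3.

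The Sm ring and the proteins of U1 and U2 were represented by 6 genes. Snrpb and Snrpd1 encode Sm ring proteins, Snrpn a form of SmB from an imprinted locus, Snrnp70 and Snrpa 2 proteins of U1, and Snrpb2 a U2 protein. Against LFD, 2 were higher in HFD and 3 in HPD, with medians of -0.01 and 0.03. Snrpa had the widest range of the group, 1.77. On the LFD arrays its lowest, median and highest values were -1.12, 0.10 and 0.65, on the HFD arrays -0.53, -0.22 and 0.01, and on the HPD arrays -0.32, 0.04 and 0.34. The control rats thus spanned both other groups, and the HPD minus HFD difference was 0.27 with a standard error of 0.23. Snrpb was level across the diets, at -0.24 ± 0.25, -0.25 ± 0.19 and -0.24 ± 0.17 (SD, n = 6) in LFD, HFD and HPD.

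Of the 5 LSm genes, Lsm8 belongs to the nuclear ring that binds U6 RNA, Lsm1 to the cytoplasmic ring of mRNA decay, Lsm3 and Lsm4 to both, and Lsm14a to cytoplasmic mRNA granules. Lsm4 was the only splicing gene whose arrays of 1 diet lay wholly apart from those of another, in HPD against HFD, where 0.236% of all genes did so. No splicing gene did so in HFD against LFD (0.0926% of all genes) or HPD against LFD (0.0880%). Lsm4 ran from -0.35 to -0.06 (median -0.13) on the HFD arrays and from -0.01 to 0.04 (median 0.02) on the HPD arrays. The 6 HPD arrays were close together, with an SD of 0.02 against 0.18 in LFD, whose arrays ran from -0.37 to 0.18 and enclosed both other groups. The difference of 0.18 (standard error 0.09) had an unadjusted p of 0.072 and an adjusted p of 0.994 by limma. With slide as a block it was 0.14, and within slides 2 and 3 it was 0.08 and 0.20. Lsm8 was at 0.16 ± 0.26 in LFD and 0.27 ± 0.09 in HPD (SD, n = 6), a difference of 0.11 with a standard error of 0.12. Lsm14a had the widest range of the group, 0.889, and its lowest, median and highest values were -0.41, -0.14 and 0.18 in LFD, -0.27, 0.09 and 0.47 in HFD, and -0.42, -0.17 and 0.33 in HPD.

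SF3A and SF3B, the heteromers that let U2 hold the branch point, were measured through Sf3a1, Sf3a2, Sf3a3, Sf3b1, Sf3b2, Sf3b3 and Sf3b4. Of the 7, 4 were higher than LFD in HFD and 4 in HPD, with medians of 0.002 and 0.01. Sf3a1 had the smallest p for any diet in this group (0.221 unadjusted). Its values ran from -0.49 to 0.30 in LFD, from -0.23 to 0.11 in HFD and from -0.01 to 0.31 in HPD, and the HPD minus HFD difference of 0.24 had a standard error of 0.13. Sf3b4, which contacts the RNA upstream of the branch point, showed the lowest HPD minus LFD difference, -0.21 with a standard error of 0.18. Its LFD arrays alone ran from -0.80 to 0.57. Sf3b1, the subunit that grips the branch point and is recurrently mutated in blood cancers, had the widest range of the group, 1.70, and its probes are described further on.

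U2AF, which reads the polypyrimidine tract and the AG at an intron's end, was represented by U2af1l4, a relative of its small subunit. Its arrays ran from -0.61 to 0.37 in LFD, from -0.52 to 0.16 in HFD and from -0.27 to 0.31 in HPD, so the diets overlapped. It is taken up again with the slides.

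The 9 PRP genes include the U4/U6 proteins Prpf3, Prpf4 and Prpf31, the U5 core protein Prpf8, the ubiquitin ligase Prpf19, the U1-associated Prpf39, Prpf38a of the activating spliceosome and the kinase Prpf4b. Of these, 4 were higher in HFD and 7 in HPD than in LFD, with medians of -0.03 and 0.08. Prpf4b had the lowest unadjusted p of any splicing gene in HPD against LFD, 0.031, with an adjusted p of 0.9999 by limma. Its LFD arrays had lowest, median and highest values of -0.40, -0.10 and 0.22, its HFD arrays -0.18, 0.00 and 0.22, and its HPD arrays -0.17, 0.37 and 0.56. Of the HPD arrays, 4 lay above every LFD array and 2 among them. The difference was 0.35 with a standard error of 0.15. It was 0.74 and 0.05 within slides 3 and 4, and 0.36 with slide as a block. A second probe of Prpf4b, 5′ of the first, gave 0.03 with a standard error of 0.21. Over all alternative settings the HPD minus LFD difference of Prpf4b ran from 0.19 to 0.49.

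Prpf31 had the lowest HFD minus LFD difference, -0.20, and the highest HPD minus HFD difference of all splicing genes, 0.29, each with a standard error of 0.16. Its arrays ran from -0.21 to 0.76 in LFD, -0.40 to 0.35 in HFD and 0.01 to 0.31 in HPD, and the unadjusted p values were 0.220 and 0.078. Prpf8, the largest protein of the spliceosome core, gave -0.14 for HPD minus LFD (standard error 0.13), and the LFD arrays, from -0.63 to 0.10, enclosed the HPD arrays, from -0.52 to -0.02. Prpf4 had the widest range of the group, 2.78, with both ends in LFD, where it ran from -1.66 to 1.12 around a median of 0.04.

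SR proteins and their relatives were 9 genes: Srsf2, Srsf3, Srsf5, Srsf9, Tra2b, Srek1, Sugp2, Scaf4 and Sfswap. In HFD 8 of the 9 were above LFD, with a median difference of 0.05, and in HPD 6 were, also with 0.05. Over the alternative settings 5 to 8 were above LFD in HFD, with medians from 0.007 to 0.106. In HPD 4 to 8 were, with medians from -0.013 to 0.142. Srek1, a regulatory SR-like protein, had the largest HFD minus LFD difference of these 9 genes, 0.21 with a standard error of 0.13, and ran from -0.27 to 0.35 in LFD and from -0.06 to 0.63 in HFD. Sugp2 was the exception in HFD, at -0.18 with a standard error of 0.15. Scaf4, which binds the tail of RNA polymerase II, had the widest range, 1.53. Its lowest, median and highest values were -0.47, -0.28 and 1.06 in LFD, -0.19, 0.08 and 0.77 in HFD, and -0.36, 0.32 and 0.62 in HPD. The LFD arrays spanned the other groups here too. A second probe of Scaf4, 5′ of the one used, averaged 0.15 in LFD and -0.26 in HFD. Its r with the probe used was -0.152. Other probes of Srsf3 and Sfswap were also lower in HFD than in LFD, while those of Srsf5 and Tra2b were higher.

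The hnRNPs were the largest group, with 17 genes. In HFD 15 of them were above LFD, with a median difference of 0.088, and in HPD 13 were below HFD, with a median of -0.084. Neither pattern rests on genes that passed the test, since none did. In the authors' deposited values 12 were above LFD in HFD. There 12 were above HFD in HPD, beside a median of 0.064 over all genes, so the second direction flipped. It also flipped, to a median of 0.007, with the array of conflicting labels counted as HFD, and to 0.005 with the 5′ minus 3′ index described further on as a covariate. Hnrnpl had the smallest p for any diet among the hnRNPs, 0.186 unadjusted. Its arrays had lowest, median and highest values of -0.32, -0.15 and 0.31 in LFD, -0.18, 0.11 and 0.22 in HFD and -0.26, -0.16 and 0.06 in HPD. The HPD minus HFD difference of -0.21 had a standard error of 0.12 and, by limma, an unadjusted p of 0.079 and an adjusted p of 0.994. Hnrnpc, which binds uridine tracts and competes with U2AF, was at 0.08 ± 0.13 in HFD and -0.06 ± 0.07 in HPD (SD, n = 6).

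LUC7-like proteins bind U1 and help it choose 5′ splice sites. Luc7l2 had the lowest unadjusted p of any splicing gene for HFD against LFD, 0.037, and 0.038 for HPD against LFD, each with an adjusted p of 0.9999 by limma. Its lowest, median and highest values were -0.09, 0.08 and 0.21 in LFD, 0.17, 0.27 and 0.34 in HFD, and 0.03, 0.28 and 0.37 in HPD. Only the highest LFD array reached into the HFD values, while 1 low HPD array lay among the LFD arrays. Both differences were 0.19 with a standard error of 0.09. Luc7l2 was higher in HFD within each slide that held both diets, by 0.11, 0.11 and 0.43 on slides 1, 3 and 5, and in HPD by 0.26 and 0.14 on slides 3 and 4. With slide as a block the differences were 0.16 and 0.21. The LFD arrays are shared by the 2 comparisons. Luc7l, its paralog, gave 0.11 in each with a standard error of 0.14, and ran from -0.54 to 0.30 in LFD.

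**Figure D2:**
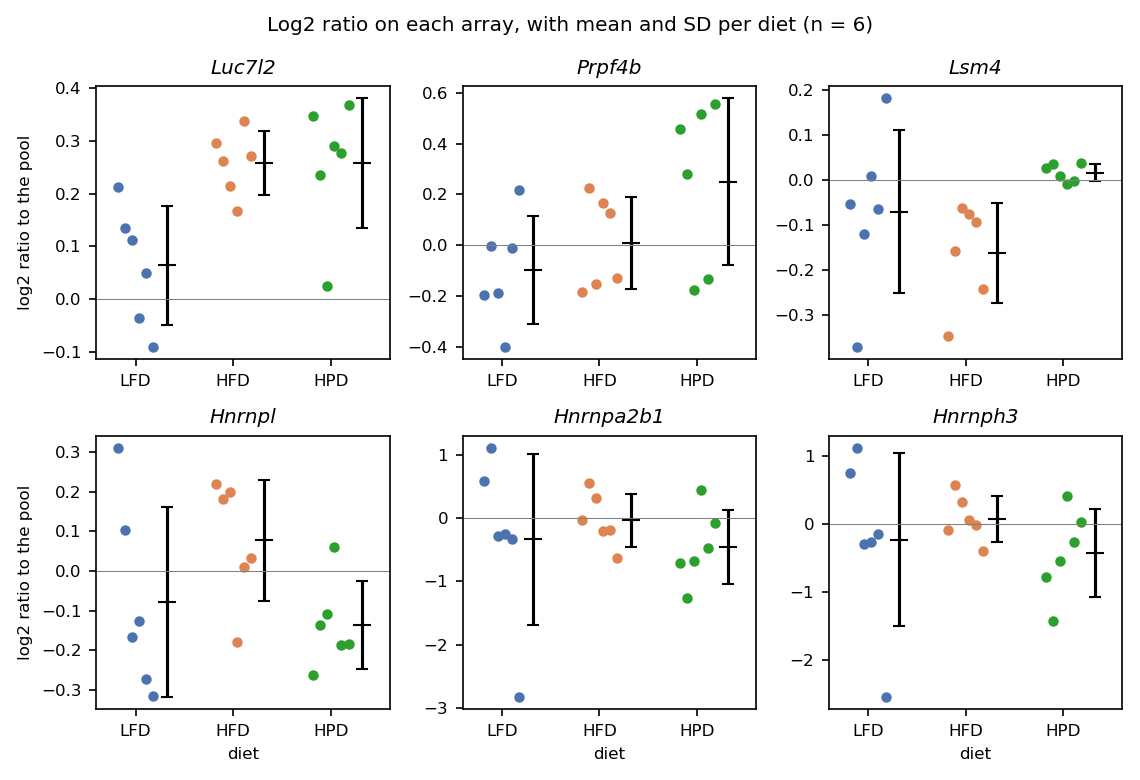
Log2 ratio to the pool on each array for 6 genes by diet, 1 point per rat, with the mean and SD of the 6 arrays beside the points. Luc7l2 is higher in HFD and HPD by 0.19 and Lsm4 separates HPD from HFD, while the LFD arrays of Hnrnpa2b1 and Hnrnph3 spread from below -2 to above 1.

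The range between rats differed widely among the splicing genes. Over the 18 arrays the range of a splicing gene had a median of 0.892, from 0.383 for Prpf38a to 3.92 for Hnrnpa2b1, beside a median of 1.35 for all genes. Of the 56, 6 (10.7%) had a range over 2, against 26.2% of all genes. These were Hnrnpa2b1, Hnrnph3, Hnrnpll, Prpf4, Hnrnpa3 and Prpf19. For each of them LFD replicates 2 and 6 held the opposite ends. LFD replicate 6 was the lowest array for 17 of the 56 genes and the highest for 14, and LFD replicate 2 the lowest for 18 and the highest for 11. Without these 2 arrays the median range was 0.727 and only Hnrnph3 and Hnrnpll stayed above 2.

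The leading genes were 3 RNA-binding hnRNPs. Hnrnpa2b1, which packages and transports RNA, was at -2.82 on LFD replicate 6 and at 1.105 on LFD replicate 2, a range that equals 15.2-fold. Its other arrays ran from -1.26 to 0.59. Hnrnph3, a small member of the G-tract binding H family, followed it on nearly every array, from -2.54 to 1.12 on the same 2 rats. Hnrnpll ran from -2.41 on LFD replicate 6 to 1.09 on LFD replicate 2, with -1.31 on LFD replicate 5, -1.24 on HPD replicate 7 and 1.00 on HPD replicate 3. Diet means of these genes differed by far less than this spread: Hnrnpa2b1 was at -0.33 ± 1.35 in LFD, -0.03 ± 0.42 in HFD and -0.46 ± 0.59 in HPD (SD, n = 6). The HPD minus HFD differences of Hnrnpa2b1 and Hnrnph3 were -0.42 and -0.50, with standard errors of 0.48 and 0.46. Hnrnpll was at -0.52 ± 1.25 in LFD, 0.12 ± 0.45 in HFD and -0.14 ± 0.82 in HPD (SD, n = 6). Its differences from LFD, 0.64 in HFD and 0.39 in HPD, were the highest of all splicing genes, each with a standard error of 0.48. It was well above background on 16 of the 18 arrays, and whether its low values lie near background was not examined.

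Hnrnpa2b1 and Hnrnph3 were the most alike of the 1540 pairs of splicing genes, with a Pearson r of 0.989 over the 18 arrays. The r was 0.973 without LFD replicates 2 and 6. Hnrnpa3, a close relative of Hnrnpa2b1, was the only other gene over 0.9 with it, at 0.911, or 0.714 without the 2 arrays. These values are those of the probe used for each gene. The 3′ probe of Hnrnpa2b1 had an r of 0.588 with the probe used. It was at 0.01 on HPD replicate 1 and 0.42 on HPD replicate 7, where the probe used was at -1.26 and -0.71. The upstream windows of Hnrnpa2b1, Hnrnph3 and Hnrnpa3 are printed because the probes used for them moved together. They are the 250 bases before the annotated start (RefSeq, GRCr8), 5′ to 3′ on the gene's strand, and capitals mark the letters CCAAT or GGGCGG on either strand. The positions are chr4:81875887-81876136 on the minus strand for Hnrnpa2b1, chr20:25619290-25619539 on the plus strand for Hnrnph3 and chr3:80985684-80985933 on the plus strand for Hnrnpa3.
Hnrnpa2b1: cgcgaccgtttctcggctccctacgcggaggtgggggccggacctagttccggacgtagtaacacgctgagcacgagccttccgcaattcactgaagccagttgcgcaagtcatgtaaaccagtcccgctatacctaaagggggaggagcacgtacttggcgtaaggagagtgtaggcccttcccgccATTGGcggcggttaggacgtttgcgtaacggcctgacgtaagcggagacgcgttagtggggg
Hnrnph3: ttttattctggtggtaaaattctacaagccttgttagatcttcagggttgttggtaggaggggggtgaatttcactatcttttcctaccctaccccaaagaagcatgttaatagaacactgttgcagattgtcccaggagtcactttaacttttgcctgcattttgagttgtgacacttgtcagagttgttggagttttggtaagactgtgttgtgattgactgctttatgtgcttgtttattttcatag
Hnrnpa3: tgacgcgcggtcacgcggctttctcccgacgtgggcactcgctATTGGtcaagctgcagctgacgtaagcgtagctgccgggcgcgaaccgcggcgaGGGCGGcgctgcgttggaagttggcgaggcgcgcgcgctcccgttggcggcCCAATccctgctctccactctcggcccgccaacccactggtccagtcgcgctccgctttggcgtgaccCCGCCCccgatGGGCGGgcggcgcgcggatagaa

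CCAAT occurred once in the window of Hnrnpa2b1 and at 2 places in that of Hnrnpa3, and GGGCGG at 3 places in that of Hnrnpa3. The window of Hnrnph3 held neither. CCGGAAG and TATAAA, also searched on both strands, were in none of the 3, and no searched motif contains another. Of 33469 windows of this length in the table, 34% hold CCAAT, 30.5% GGGCGG, 7.27% CCGGAAG and 12.9% TATAAA. No searched motif was in all 3 windows. The Hnrnph3 window ends in AG, as introns do, and whether transcription starts at the annotated position was not analysed here.

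**Figure D3:**
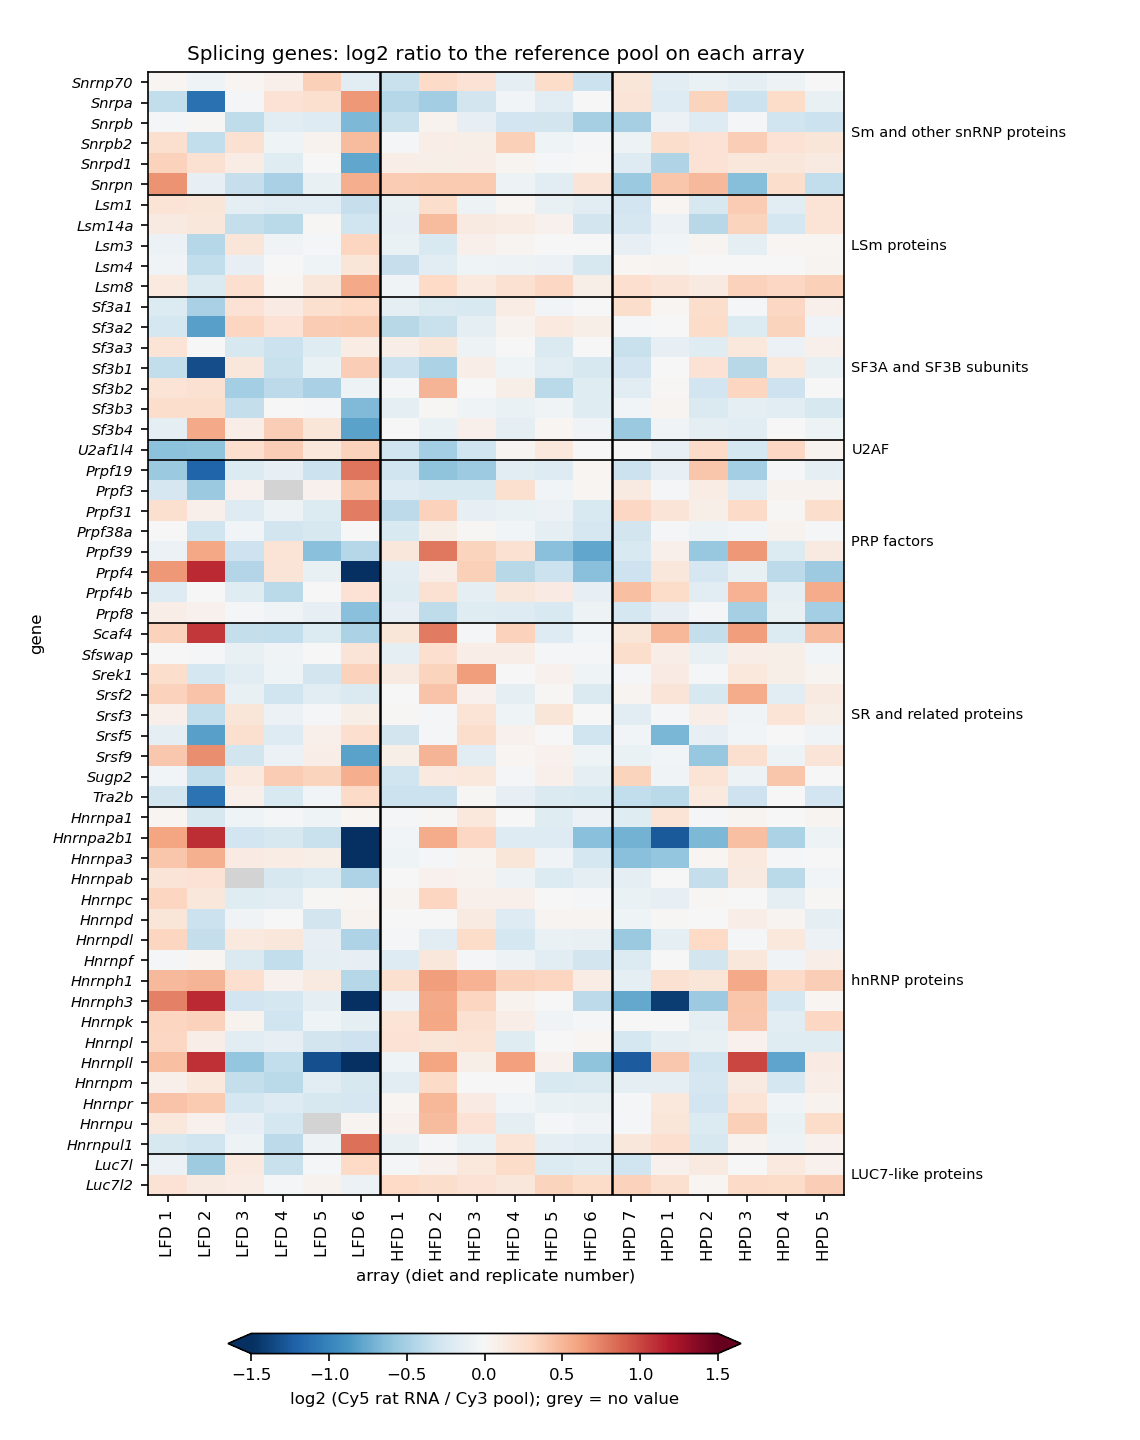
Log2 ratio to the pool of 55 of the 56 genes (rows, by role) on the 18 arrays (columns, by diet); red is above the pool, blue below, and the colour is at its end beyond 1.5 in either direction. The columns of LFD replicates 2 and 6 carry the strongest colours and are often opposite, while no block of colour follows a diet.

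Over the arrays some splicing genes ran together and others ran in opposition. Of the 1540 pairs, 91 had an r over 0.8 and 38 an r under -0.8, and 66 and 19 did so without LFD replicates 2 and 6. Pairs of other genes were not counted, so these counts do not set the splicing genes apart. Snrpa, Sf3a1 and Sf3a2 moved together (r of 0.929 and 0.921 with Snrpa). Hnrnpm and Hnrnpk moved together (0.917). So did Sf3b1, by its 3′ probe, with Tra2b (0.935) and Lsm3 (0.926), or 0.787 and 0.855 without LFD replicates 2 and 6. That probe had an r of -0.527 and -0.628 with the other probes of Sf3b1, and the 2 probes of Tra2b had -0.0509. By contrast, U2af1l4 ran opposite to Hnrnpab (-0.927) and Hnrnpr (-0.921), and Snrpa opposite to Hnrnpab (-0.887). The used probe of Hnrnpab had an r of 0.797 with the probe 5′ of it and 0.0212 with the probe 3′ of it. By the probes used, subunits of 1 particle did not always go together: Prpf3 and Prpf4, both of the U4/U6 particle, had an r of -0.891, or -0.712 without the 2 arrays. The 2 probes of Prpf3 had an r of 0.366 with each other. With the 5′ minus 3′ index described further on, the used probe had -0.884 and the other -0.0661. All these values come from the same 18 libraries. Removing slide means left -0.781 for U2af1l4 with Hnrnpab and -0.660 with Hnrnpr. With the same index U2af1l4 had an r of -0.758, Hnrnpab 0.777 and Hnrnpr 0.691.

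The arrays also differed by slide. With diet in the model, 13 of 56 splicing genes had an unadjusted p under 0.05 for slide, beside 22.2% of all genes, so their share was near that of the array. None passed after adjustment with the main settings, against 44 of all genes (0.204%). The adjusted p was 0.0505 for U2af1l4 and 0.083 for Sf3a2 (limma). U2af1l4 averaged -0.51, -0.17, 0.08, 0.28 and 0.25 on slides 1 to 5. Sf3a2 went with U2af1l4, from -0.46 on slide 1 to 0.30 on slide 4. Leaving out any array but LFD replicate 3 moved the count of all genes called for slide by over 1.5 times, to between 0 and 2163. Without HFD replicate 5 it was 2163 of 21591 genes, and 12 of the 56 splicing genes were among them. Splicing genes passed for slide in 3 of 18 fits that left out 1 array, and in 9 of 14 other alternatives. Among the latter the most were 9 of 56 in the authors' deposited values, beside 1807 of 17229 of all genes. Leaving out HPD replicate 7, the array with conflicting labels, is counted in both sets of fits.

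Several splicing genes have probes at different places along the gene, and these often disagreed. Of 30 genes with 2 or more probes, the sign of the diet difference varied between probes in 11 for HFD minus LFD, 14 for HPD minus LFD and 8 for HPD minus HFD, with no unadjusted p under 0.05 on a probe of such a gene in that comparison. Over the 18 arrays the 49 pairs of probes of the same gene had a median r of 0.472, and 10 pairs, in 6 genes, had an r below 0. The lowest was -0.628 and the highest 0.950. Other genes with 2 or more probes were not counted in this way, so these counts do not set the splicing genes apart.

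Sf3b1 shows the disagreement between probes most clearly. Its 3 probes lie on chromosome 9, on the minus strand of rn4, at 53825336 to 53825395 (the 5′ most), 53806757 to 53806897 and 53795249 to 53795308 (the 3′ most, which was the brightest and was used above). The first 2 went together (r of 0.911), and the 3′ probe ran against them (-0.527 and -0.628). On LFD replicate 2 the probes gave 0.40, 0.86 and -1.33 from 5′ to 3′, and on LFD replicate 6 they gave -0.61, -1.23 and 0.37. The same gene was thus above the pool by its 5′ probes and below it by its 3′ probe in 1 rat, with the reverse in the other. Srsf5 gave 0.43, 0.86 and -0.82 on LFD replicate 2 and -0.88, -1.60 and 0.26 on LFD replicate 6. For Hnrnpa1, the 2 probes on the 5′ side reached 1.06 and 0.53 on LFD replicate 2 and -1.65 and -1.02 on LFD replicate 6. Its 2 probes on the 3′ side stayed between -0.39 and 0.28 on all 18 arrays. Hnrnpa2b1 was brightest at its 5′ probe, whose range was 3.92, while its 3′ probe had a range of 1.35, with -0.71 on LFD replicate 6.

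**Figure D4:**
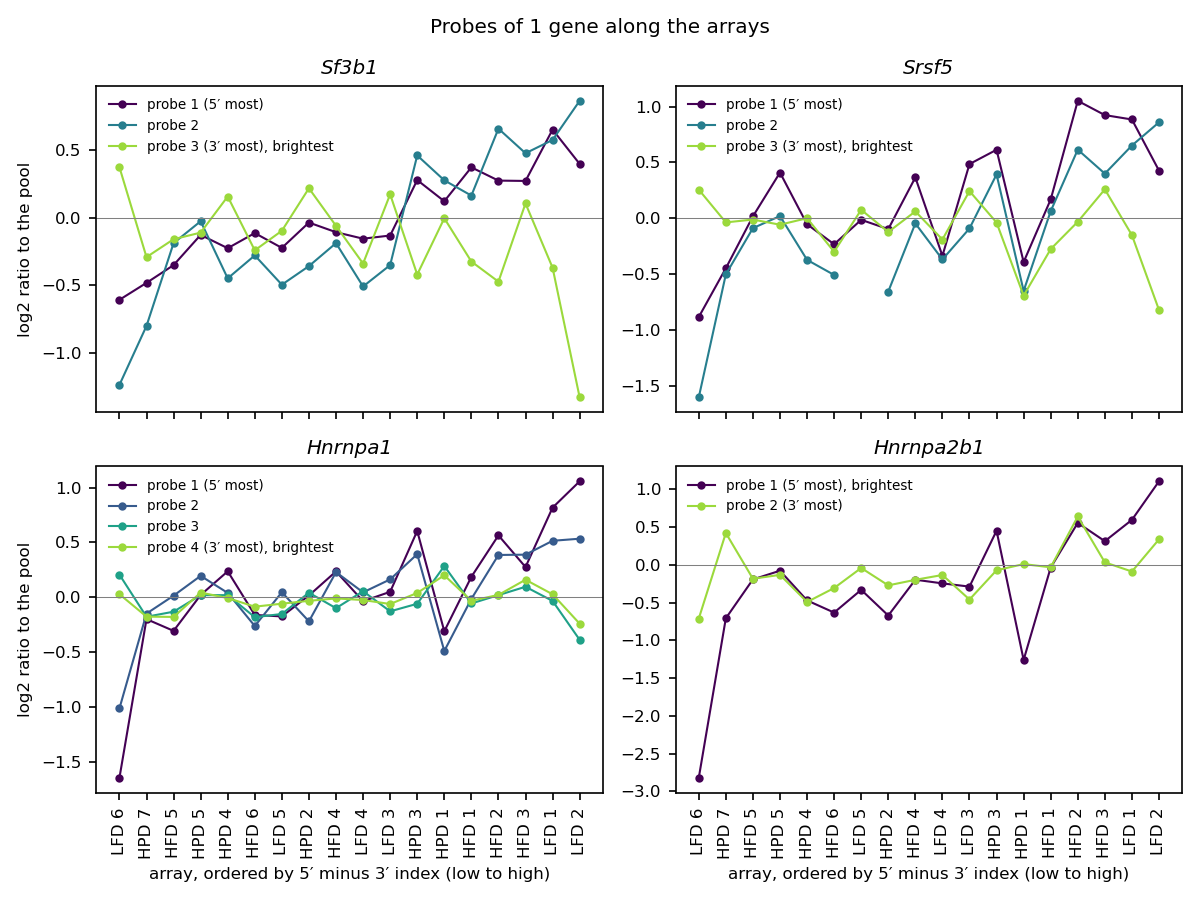
Log2 ratio to the pool of every probe of Sf3b1, Srsf5, Hnrnpa1 and Hnrnpa2b1 on the 18 arrays, which are ordered from the lowest to the highest 5′ minus 3′ index; darker lines lie nearer the 5′ end. The 5′ probes climb from left to right, while the most 3′ probes of Sf3b1, Srsf5 and Hnrnpa1 stay level or drop and that of Hnrnpa2b1 climbs less (r of 0.449 with the index, against 0.817 for the 5′ probe), most of all between LFD replicates 6 and 2 at the ends.

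To set this against the rest of the array, the median 5′ minus 3′ log ratio was taken on each array over 2006 other genes with 2 probes between 1000 and 200000 bases apart on rn4. This index was 0.22 on LFD replicate 2, 0.17 on LFD replicate 1, -0.22 on HPD replicate 7 and -0.31 on LFD replicate 6, and between -0.12 and 0.08 on the other 14. Among 26 splicing genes with such a pair of probes, the gene's own 5′ minus 3′ difference correlated with the index above 0 in 20, over 0.7 in 13, and with a median r of 0.679. Without the 2 arrays of the most extreme index, 8 were over 0.7 and the median r was 0.516. The highest were Hnrnpd (0.920), Srsf5 (0.919) and Srsf3 (0.918), and Sf3b1 followed with 0.874. Prpf4b was at 0.05, and 6 genes were below 0, down to Hnrnpa3 at -0.780. How many of the 2006 other genes had an r over 0.7 was not counted.

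**Figure D5:**
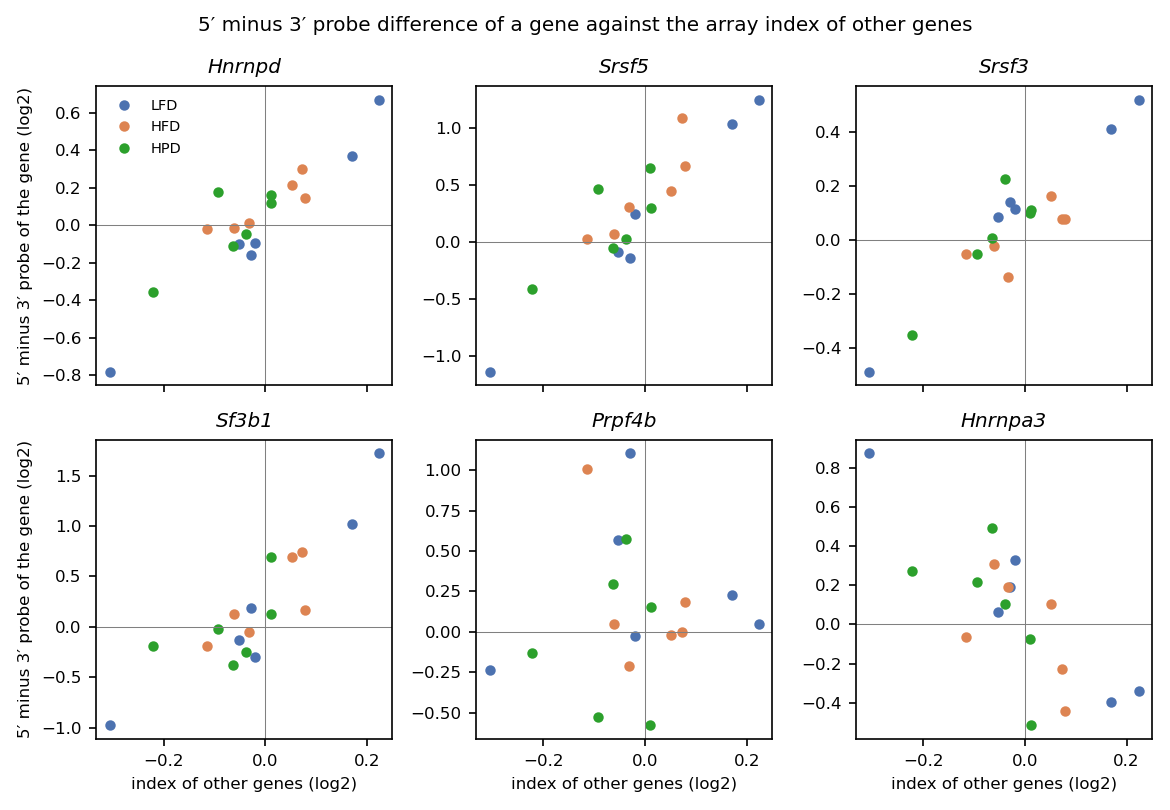
The 5′ minus 3′ probe difference of 6 genes (vertical, log2) against the 5′ minus 3′ index of 2006 other genes (horizontal, log2), 1 point per array and coloured by diet. Hnrnpd, Srsf5, Srsf3 and Sf3b1 climb with the index (r of 0.920, 0.919, 0.918 and 0.874), Prpf4b shows no slope, and Hnrnpa3 goes down (-0.780).

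The level of many splicing genes followed the index as well. Its correlation with the index lay beyond 0.7 in either direction for 18 of 56 splicing genes (32.1%), beside 17.2% of the other genes. Without LFD replicates 2 and 6 it did so for 5 splicing genes (8.93%), beside 6.33% of the other genes. At the top were Prpf4 (Pearson 0.885, Spearman 0.785), Snrpb (0.826, 0.744), Hnrnpa2b1 (0.817, 0.697) and Hnrnph1 (0.810, 0.620). At the bottom were Prpf3 (-0.884, -0.777), Snrpa (-0.830, -0.767) and Sf3a1 (-0.799, -0.754). Without LFD replicates 2 and 6 the Pearson r was 0.731 for Prpf4, 0.595 for Hnrnpa2b1 and -0.742 for Prpf3. The erythroid markers, at 0.71 on LFD replicate 2 and -1.13 on LFD replicate 6, also moved with the index (0.707) and less with Hnrnpa2b1 (0.470), and the T cell markers, at 0.06 and -0.58, gave 0.563 and 0.519. The NK cell markers gave 0.390 and 0.502, and the plasma cell markers -0.550 and -0.348. The neutrophil markers, at -1.37 on LFD replicate 2 and 0.76 on LFD replicate 6, gave -0.404 and -0.319. The B cell, monocyte and platelet lists lay between -0.0499 and 0.150 in both. Their part in these results was not tested. With the index as a covariate, chosen after seeing the data, no splicing gene passed the test for any pair of diets, and the HPD minus HFD median of the splicing genes became 0.011.

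Lists of other splicing genes, and of proliferation genes, were set beside these. None of 44 measured other spliceosome proteins, 16 genes of the exon junction complex and mRNA export, 28 splicing regulators and kinases, 9 genes of the SMN complex and 15 proliferation genes passed in any comparison by limma. Their medians for HFD minus LFD were -0.01, 0.04, 0.08, -0.05 and -0.06, and for HPD minus LFD 0.02, 0.02, 0.02, 0.05 and 0.06. In the same order, 20, 10, 23, 2 and 5 genes were higher in HFD than in LFD, beside 50.2% of all genes. Higher in HPD than in HFD were 28, 8, 11, 8 and 9, beside 54.5% of all genes. The helicase gene Dhx8 gave -0.34 for HFD minus LFD (standard error 0.15, unadjusted p 0.033) and 0.26 for HPD minus HFD. The splicing regulator Tial1 gave 0.19 for HFD minus LFD (standard error 0.08, unadjusted p 0.035), and the SR protein kinase gene Srpk2 gave 0.26 for HPD minus LFD (standard error 0.13). Of the SMN complex, which loads Sm rings onto small nuclear RNAs, 2 of 9 genes were higher in HFD than in LFD and 8 of 9 higher in HPD than in HFD, with a median of 0.12. Gemin4 gave -0.23 and 0.29 in these comparisons, each with a standard error of 0.15, and Gemin6 gave 0.26 for HPD minus LFD (0.13). Among the other leading genes, Casc3 gave 0.23 for HPD minus LFD, while Srrm2 gave -0.31 and Son -0.14 for HPD minus HFD. Of the proliferation genes, Mcm7 gave -0.32 for HFD minus LFD (standard error 0.18), Tyms 0.20 for HPD minus LFD (0.23) and Cdk1 0.37 for HPD minus HFD (0.23).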

How the data were processed

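PBMC RNA of 18 rats was measured on 2-colour Agilent 4x44K arrays, 1 rat in Cy5 against a Cy3 pool per array, with no dye swap described. Per the labels' protocols the pool was equimolar. The deposited scanner files were made with Feature Extraction 10.5.1.1 (Agilent), as the submitters' processing notes say. Per the file headers the processed signals are intensity values, background-subtracted and dye-normalized by the scanner software, and spot marks (outlier, saturated, well above background) are 0 or 1. A deposited table by the authors holds log2 values with column medians of 8.40, whose differences between arrays correlated at 0.885 with those used here (slope 0.700). Its direction and scale were matched so, its centring stays unknown, and it served as an alternative.

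Log2 ratios of the processed signals were used without further normalization. Spots marked as outliers were set to missing (3 values of these genes), spots of a probe averaged, and the brightest passing probe of a gene name taken, which left 21591 genes. Names were updated through RefSeq (GRCr8), 25 of the 56 by accession, 21 by symbol and 10 by synonym. Probe positions are on rn4 per the file headers, and the strand was read from the order of their coordinates. Group means were fitted over all 18 arrays with limma 3.58.1 in R 4.3.3, with Benjamini-Hochberg adjustment over all genes and a threshold of 0.05, and the fit was tested on simulated data. Samples enter as separate rats, as the labels describe. Correlations over arrays are descriptions without a test.

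The genes, lists and tests were chosen with earlier results of these data known. Named were, per comparison, the 3 genes with the smallest p in each direction, per role the smallest p for any diet and the widest range, genes whose diets do not overlap, the 3 smallest p for slide, and per list the smallest p. Hnrnpa1, Srsf5, Hnrnpa3, Hnrnpll and the other genes named for their range, probes or correlations were chosen after their values were seen. A few genes that this rule names are not reported here, and the figures of all genes leave out 1 of the 56. Alternatives were background correction by normexp (offset 50) with loess, centring, scaling, Cy5 alone, the authors' values, spot and probe choices, filters, blocks for slide and replicate number, array weights, and leaving out arrays. Adding the index as a covariate and leaving out LFD replicates 2 and 6 were chosen after seeing the data.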

Additional observations from a re-analysis of the deposited data

Results flagged for a closer look

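Among 75 groups of 6 arrays examined (24 genes and the median over the splicing genes, each in 3 diets), 6 held 1 array farther from its neighbour than 0.625 of the group's range. In groups taken without regard to their values, chance gives such a distance in about 1 of 20. These genes were named partly for a wide range or a small p, and Hnrnpa3 after its values were seen. The count of 6 can therefore not be set against that rate. LFD replicate 6 stood apart at -2.82 for Hnrnpa2b1 (next array -0.33), at -1.80 for Hnrnpa3 (next 0.09) and at -0.63 for Prpf8 (next -0.13). HPD replicate 7, the array with conflicting labels, stood apart at -0.29 for Luc7l (next 0.005) and at -0.56 for Sf3b4 (next -0.16). HFD replicate 2 stood apart at 0.33 for Hnrnpc (next 0.08). LFD replicate 6 and HPD replicate 7 are also the arrays with the lowest 5′ minus 3′ index, -0.31 and -0.22, and the part of this in the outlying values was not tested.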

How the results depend on the processing

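No splicing gene passed for any pair of diets under any of the 39 alternatives (18 of them leaving out 1 array and 2 added later), whose lowest adjusted p for a splicing gene was 0.407 (limma). Leaving out HPD replicate 7, the array with conflicting labels, is counted among them under 2 names. Over all genes, HPD against LFD gave 1 gene with the replicate block, 2 with array quality weights, 2 without LFD replicates 2 and 6, and 0 to 1 when leaving out 1 array (1 without LFD replicate 2), against 0 otherwise. Samples of the same replicate number in 2 diets deviated with correlations of -0.309 to 0.217. These values alone cannot show whether the numbers pair the rats, since pairs of different numbers were not set beside them. With the replicate block the member medians were 0.085, 0.072 and -0.015. The HPD minus HFD member median was 0.086 in the authors' deposited values. Hnrnpc turned positive for HPD minus LFD in Cy5 alone (0.0094), with slide as a block (0.00082), with array quality weights (0.002315) and without slide 1 (0.023), and for HPD minus HFD in the authors' values (0.024).

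The count of all genes called for slide, 44, was 587 and 516 with normexp without and with marked spots, 129 in Cy5 alone, 1807 in the authors' values, 97 after centring, 21 after scaling, 7 with no filter, 138 with all arrays above background, 0 with the mean of all probes, 243 without the array of conflicting labels, 125 with it as HFD, 0 without slide 1, 16 without LFD replicates 2 and 6, and 0 to 2163 when leaving out 1 array. The causes were not tested. The HPD minus HFD member median changed sign in several settings, by less than the SD of 0.097 between arrays of a diet except in the authors' values. All other diet differences followed across settings for single genes (Hnrnph3, Hnrnpl, Lsm4, Lsm8, Luc7l2, Prpf31, Prpf4b, Prpf8, Sf3a1, Sf3b4, Srek1 and Sugp2) kept their direction and their side of the threshold, and both medians against LFD stayed above 0. The directions of other named genes were not compared across these settings. Of the 56 genes, 55 were well above background on all arrays.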
